A study of Mus musculus with 2 samples.

Results

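The Dusp family codes for dual-specificity phosphatases. Those of them that are MAP kinase phosphatases take the phosphate off both the threonine and the tyrosine of activated MAP kinases. They so switch these kinases off. The 8 genes described here, Dusp1, Dusp2, Dusp4, Dusp5, Dusp6, Dusp10, Dusp14 and Dusp16, were taken by name, from a list made with earlier results of these data known, and all 8 were among the 32285 genes in the deposited matrices. Dusp2 encodes PAC1 and is the gene deleted in this study. The question was how much of each gene lung group 2 innate lymphoid cells (ILC2s) held, in which cells, and whether the 7 other genes differed when Dusp2 was lost.

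Many of these phosphatases are themselves induced by the kinases they switch off, which closes a feedback loop. Dusp1, Dusp2, Dusp4 and Dusp5 encode inducible phosphatases of the nucleus, of which Dusp5 acts on ERK and Dusp1 mainly on p38 and JNK. Dusp6 encodes a cytoplasmic phosphatase of ERK, and Dusp10 and Dusp16 encode phosphatases that prefer p38 and JNK. Dusp14 encodes a small atypical member without the kinase-binding domain. ILC2s carry no antigen receptor and make IL-5 and IL-13 when tissue cytokines such as IL-33 reach them, a signal that runs in part through MAP kinases.

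Single cells of 2 droplet libraries were compared, 1 of wild-type (WT) mice and 1 of Pac1-/- mice, in which both alleles of the gene for PAC1 are deleted. All mice were on the C57BL/6J background and, per the methods of the study, 6 to 8 weeks old and matched for sex and age. Lung cells without lineage markers that bore Sca-1, ST2 and CD90.2 on their surface were sorted, those of 1 genotype were pooled over mice, and 13000 were loaded per library. No label names a treatment of these mice or a stimulation of the sorted cells, while the design of the whole series speaks of steady or activated ILC2s, so the state in which these cells were taken is not known here. With 1 pool of mice per genotype, a difference between genotypes cannot be told apart from a difference between pools, sorts or library preparations. No test between genotypes was therefore possible, and the intervals given are 95% intervals of counting error only.

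Transcripts were tagged before PCR, and a UMI (unique molecular identifier) is 1 such tag, so copies of a transcript count once. Cells were the barcodes that held 500 genes or more and no more than 10% of their UMIs from mitochondrial genes, which kept 8394 of 10866 in WT and 7087 of 9495 in Pac1-/-. They held 54579034 and 58338886 UMIs, with medians of 4186.5 and 5577 per cell, and 15 kept barcodes occurred in both libraries. Gata3, the defining transcription factor of ILC2s, or Il1rl1, which encodes ST2, was found in 97.6% of the cells in either library. The sum of 7 heat shock genes, which respond to handling, was 3039 CPM in WT, that is, UMI counts scaled to the same library total, and 4636 in Pac1-/-. The sum of 6 T cell markers was 142 and 105 CPM, most of it Cd3g at 119 and 93.7 CPM, while Trac stood at 8.08 and 3.05 CPM, Cd3e at 10.5 and 5.88 CPM and Cd8a at 0 in both libraries. The sum of 3 hemoglobin genes was 70.1 and 246 CPM, that of 3 mast cell and basophil markers 13.2 and 28.4 CPM, that of 4 B cell markers 6.30 and 11.4 CPM and that of 4 myeloid markers 2.44 and 7.10 CPM. The sum of 3 epithelial markers was 53.9 and 78.9 CPM, with Sftpc at 0.27 and 11.6, Epcam at 16.2 and 20.9 and Scgb1a1 at 37.5 and 46.5 CPM. Among 7 ILC2 markers, Gata3 stood at 1206 and 1035 CPM, Il1rl1 at 1112 and 992 CPM and Thy1 at 165 and 153 CPM. Klrg1 stood at 197 and 131 CPM and Rora at 2265 and 1686 CPM. Il7r, at 812 and 1081 CPM, and Ly6a, which encodes Sca-1, at 100.4 and 213 CPM, were higher in Pac1-/-. A UMI is counted near the 3′ end of a transcript, so the count does not grow with transcript length to a first order, and CPM was compared between genes without a division by length.

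The promoters of the 4 members that the results turn on are shown first, since several family members are known as immediate-early genes with short response elements near the start. Each runs from 250 bases before to 50 bases after the transcription start in RefSeq on GRCm38.p6, the mm10 genome, and 7 of the 8 members had an entry in the table used, the other being Dusp4. 4 motifs were searched on both strands, and their letters are in capitals: the cAMP response element TGACGTCA, the AP-1 site TGAGTCA, the EGR site in the forms GCGTGGGCG and GCGGGGGCG, and the CArG box bound by serum response factor. The second EGR form shares letters with GC boxes, which are common in promoters.
Dusp1, chr17:26508423-26508722, minus strand: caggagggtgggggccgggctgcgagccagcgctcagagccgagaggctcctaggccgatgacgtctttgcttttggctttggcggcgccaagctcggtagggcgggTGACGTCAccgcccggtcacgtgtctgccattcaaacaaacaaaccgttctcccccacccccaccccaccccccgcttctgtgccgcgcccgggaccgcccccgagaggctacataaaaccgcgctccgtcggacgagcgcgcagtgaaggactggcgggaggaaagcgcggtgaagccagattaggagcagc
Dusp2, chr2:127335909-127336208, plus strand: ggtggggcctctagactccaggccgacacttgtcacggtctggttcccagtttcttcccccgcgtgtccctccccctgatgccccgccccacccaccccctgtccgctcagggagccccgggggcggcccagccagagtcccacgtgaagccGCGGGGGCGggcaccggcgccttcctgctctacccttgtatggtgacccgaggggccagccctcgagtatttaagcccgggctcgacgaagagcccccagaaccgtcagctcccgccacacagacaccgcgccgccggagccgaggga
Dusp5, chr19:53528895-53529194, plus strand: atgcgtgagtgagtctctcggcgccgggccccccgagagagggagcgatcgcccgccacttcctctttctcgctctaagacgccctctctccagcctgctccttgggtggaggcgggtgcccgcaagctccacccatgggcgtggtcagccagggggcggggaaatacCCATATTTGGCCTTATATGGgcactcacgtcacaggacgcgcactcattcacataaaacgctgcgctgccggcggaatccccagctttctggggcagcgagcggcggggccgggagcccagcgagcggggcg
Dusp10, chr1:184034131-184034430, plus strand: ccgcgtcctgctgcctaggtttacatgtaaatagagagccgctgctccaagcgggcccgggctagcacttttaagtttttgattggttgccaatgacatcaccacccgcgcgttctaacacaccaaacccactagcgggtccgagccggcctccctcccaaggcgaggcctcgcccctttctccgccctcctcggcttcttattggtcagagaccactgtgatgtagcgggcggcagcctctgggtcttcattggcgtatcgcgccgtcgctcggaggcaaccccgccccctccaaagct

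The Dusp1 window held 1 cAMP response element, starting 143 bases before the start, and 1.79% of all 32851 promoters of this length held that motif. The Dusp5 window held 2 CArG boxes side by side, starting 82 and 72 bases before the start, a motif found in 1.63% of promoters. The Dusp2 window held 1 EGR site, starting 98 bases before the start (3.47% of promoters). None of the 4 motifs was in the windows of Dusp6, Dusp10, Dusp14 and Dusp16, and none of the 7 windows held the AP-1 letters, which were in 5.20% of promoters. These matches describe the letters of the windows and not bound sites.

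All 8 genes are protein coding. In the annotation of GRCm38, Dusp2 is a compact gene at chr2:127336159-127338376 on the plus strand, 2218 bases long. Dusp1 is annotated at chr17:26505590-26562128 on the minus strand, Dusp4 at chr8:34807297-34819894 on the plus strand and Dusp5 at chr19:53529109-53542431 on the plus strand. Dusp6 lies at chr10:99263231-99267489 and Dusp10 at chr1:184013302-184075636, both on the plus strand. Dusp14 lies at chr11:84048041-84069261 and Dusp16 at chr6:134715468-134792625, both on the minus strand. The Dusp1 and Dusp10 windows shown above lie inside the annotated genes, since RefSeq places the starts used there further downstream. On the opposite strand, Dusp1 overlaps Ergic1 and Gm8225, Dusp5 overlaps AC137853.2, Dusp10 overlaps 1700056E22Rik and Dusp16 overlaps Gm36328. On its own strand the annotated span of Dusp1 holds AC122252.4 and AC122252.1, for which no counts were used here.

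Dusp5 and Dusp1 were by far the most abundant members in WT ILC2s. Dusp5 stood at 720 CPM (39303 UMIs) and Dusp1 at 643 CPM (35102 UMIs), which placed them at ranks 210 and 228 of all genes. Together they made up 45.8% and 40.9% of the summed level of the 8 genes. Dusp10 at 82.4 CPM and Dusp6 at 66.8 CPM followed, about an order of magnitude lower. Dusp2 stood at 26.0 CPM (1419 UMIs) and Dusp4 at 21.1 CPM (1151 UMIs). Dusp16 at 11.2 CPM and Dusp14 at 2.24 CPM closed the order. In Pac1-/- Dusp1 came before Dusp5 and Dusp6 before Dusp10, and the order was otherwise the same without Dusp2. The counting intervals of neighbours in the WT order did not overlap, but the spread between mice or libraries was not measured, so the order holds for this library. Transcripts of the gene deleted in the study were thus 1.65% of the summed level of these 8 genes in WT cells. Those of Dusp1 were 24.7 times as abundant. Other Dusp genes are not in this sum, among them Dusp11 at 208 CPM in WT.

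**Figure D1:**
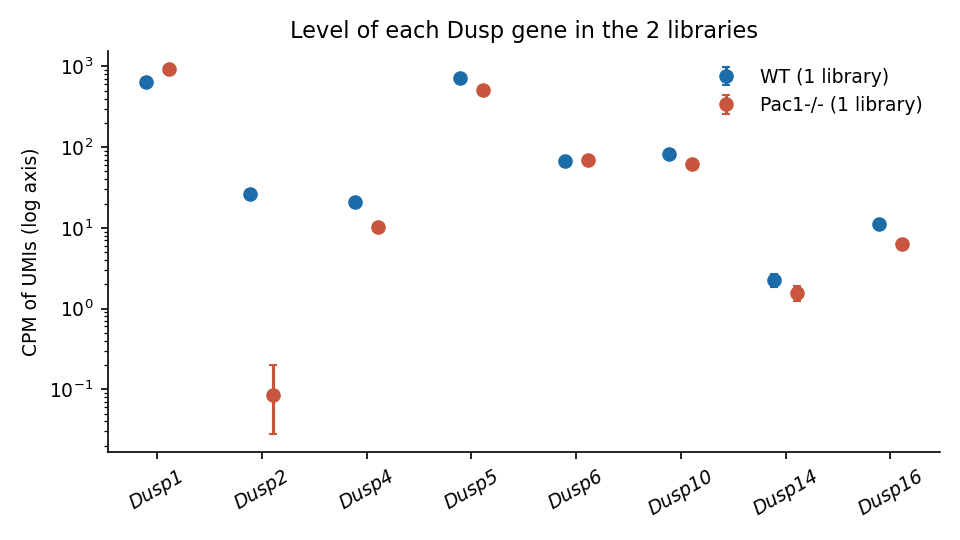
Level of each of the 8 Dusp genes in CPM, on a log axis, in the WT and the Pac1-/- library (1 library each), with 95% Poisson intervals that are smaller than most points. Dusp1 and Dusp5 are the highest in both libraries, and Dusp2 falls from 26.0 to 0.0857 CPM.

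Dusp2 was all but absent from the Pac1-/- library, with 5 UMIs (0.0857 CPM) against 1419 in WT. Cells with at least 1 UMI of it numbered 757 in WT (9.02%) and 5 in Pac1-/- (0.0706%), although the Pac1-/- cells held more UMIs at the median. At 1500 UMIs per cell these shares were 2.86% and 0.015%. This matches the labels of the libraries. How many Dusp2 UMIs in WT cells came from free RNA was not measured. The part of the gene that was deleted is not given in the sources used here.

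Of the 7 other members, 5 were lower in the Pac1-/- library past a fixed fold, and none was higher. Ratios are on the log2 scale, Pac1-/- over WT, relative to the median of the 12427 genes with at least 50 UMIs, which itself stood 0.19 higher in Pac1-/- as counted. The fold was 0.5 on this scale, or 1.41-fold, and 16.1% of all genes were lower and 11.5% higher by as much. The median of the 7 members was -0.70. The quartiles over all single genes were -0.31 and 0.28, which do not measure how far a median of 7 genes may lie. No member other than Dusp1 lay above the median gene.

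Dusp4 had the largest difference after Dusp2 itself, with 21.1 CPM in WT and 10.1 in Pac1-/-, a relative log2 ratio of -1.245 (-1.39 to -1.10). Dusp16 stood at 11.2 and 6.31 CPM, a ratio of -1.01 (-1.20 to -0.82). Both are low members, with 591 and 368 UMIs in the Pac1-/- library. Dusp5, the ERK phosphatase, stood at 720 and 506 CPM, a ratio of -0.70 (-0.72 to -0.67), and 9.83% of all genes had a lower one. Dusp10 stood at 82.4 and 61.4 CPM, a ratio of -0.61 (-0.68 to -0.55). Of these 4 genes, Dusp5 encodes a phosphatase of ERK, while those of Dusp10 and Dusp16 prefer p38 and JNK. Whether the lower members share a substrate was not tested. Dusp14 stood at 2.24 and 1.56 CPM from 122 and 91 UMIs, a ratio of -0.71 whose interval, -1.11 to -0.30, included values within the fold.

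Dusp1 was the member that stood higher, at 643 CPM in WT and 922 in Pac1-/- (53760 UMIs). Its relative ratio was 0.33 (0.31 to 0.35), short of the fold, with 78.9% of all genes below it. As counted, without the shift of the median gene, it was 0.52, just past the fold. Dusp6, the cytoplasmic ERK phosphatase, was the member that differed least, at 66.8 and 68.4 CPM, with a relative ratio of -0.15 and a ratio as counted of 0.035. The summed level of all 8 members was nearly equal, 1573 CPM in WT and 1576 in Pac1-/-. Within that sum Dusp1 took 40.9% in WT and 58.5% in Pac1-/-, and Dusp5 took 45.8% and 32.1%.

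**Figure D2:**
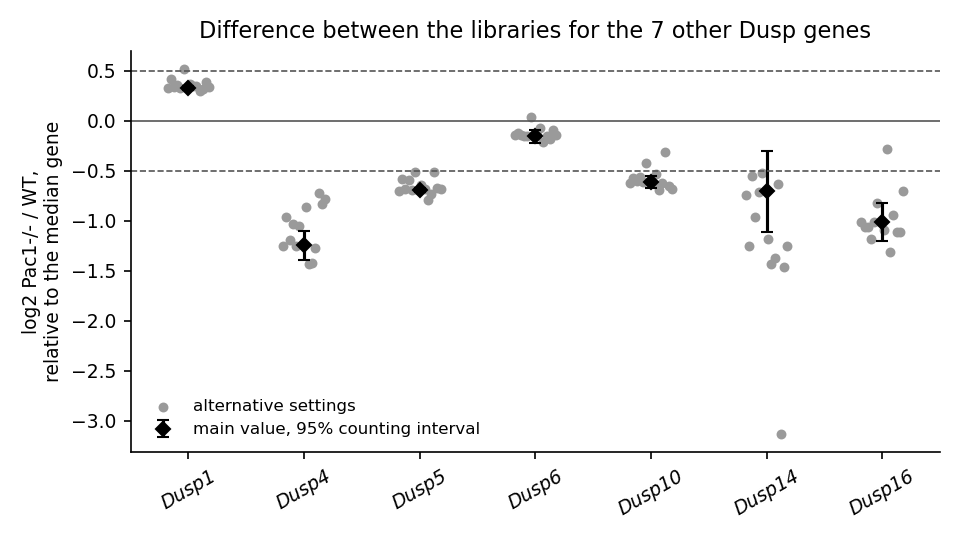
Log2 ratio of Pac1-/- over WT for the 7 other Dusp genes. Black diamonds are the main values relative to the median gene with 95% counting intervals (1 library per genotype), grey points are the same ratio under other filters, depth ranges and scalings (the ratio as counted among them), and dashed lines mark 0.5 and -0.5. Dusp1 lies above 0 and Dusp4, Dusp5, Dusp10, Dusp14 and Dusp16 lie below 0 in all of them.

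The direction of these 6 ratios was the same in every filter, scaling and depth range tried. Dusp5 ranged from -0.79 to -0.51 and Dusp4 from -1.44 to -0.73, past the fold in each of these settings. Cells with an Il5 or an Il13 UMI were not among the settings. In them the relative ratios fell short of the fold, at -0.32 and -0.15 for Dusp5 and -0.24 and -0.42 for Dusp4. Dusp10 ranged from -0.70 to -0.32 and missed the fold in 2 settings, one of them the cells without an Hspa1a or Hspa1b UMI. Dusp16 ranged from -1.32 to -0.28 and missed it only among cells under 3000 UMIs. Heat shock transcripts differed between the libraries. Cells thinned to 1500 UMIs and free of both Hspa1a and Hspa1b were 57.2% of all thinned cells in WT and 43.9% in Pac1-/-. In those cells the ratio of Dusp1 was 0.32 and that of Dusp5 -0.51. In cells without a UMI of Cd3d, Cd3e, Cd3g or Trac, genes of the T cell receptor complex, Dusp1 stood at 0.39, Dusp5 at -0.67 and Dusp10 at -0.65. The part of the hemoglobin, mast cell, B cell, myeloid and epithelial transcripts in these values was not tested.

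The same pattern was seen as a share of cells once every cell had been thinned at random to 1500 UMIs, which left 7634 WT and 6564 Pac1-/- cells and removed 760 and 523 shallower ones. A Dusp5 UMI was found in 50.7% of WT cells (interval 49.6% to 51.9%) and in 38.8% of Pac1-/- cells (37.6% to 39.99%). For Dusp1 the shares were 47.3% (46.2% to 48.5%) and 54.9% (53.7% to 56.1%). At this depth Dusp5 was thus found in more cells than Dusp1 in WT and in fewer in Pac1-/-. A Dusp10 UMI was found in 10.3% and 7.77% of cells, a Dusp4 UMI in 2.16% and 1.33%, and a Dusp16 UMI in 1.53% and 0.82%. Dusp6 was found in 8.96% and 8.87%, and Dusp14 in 0.26% and 0.12%. Before thinning the shares of Dusp5 were 71.4% and 65.3%, and those of Dusp1 71.8% and 77.9%, so that Dusp1 then came first in both libraries. Barcodes with B cell markers, 8 and 22 in number, were too few to serve as background for these shares, and other cell types were not tried.

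The positive cells also differed in how much they held. A thinned cell with Dusp1 carried on average 1.93 of its UMIs in WT and 2.43 in Pac1-/-. A cell with Dusp5 carried 1.88 and 1.78. The remaining members were mostly present as a single UMI, at most 1.27 on average per positive cell, and 17.9% of WT cells with Dusp2 and 13.5% of those with Dusp10 held more than 1. So at this depth a cell in which they were not found cannot be called negative.

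Cells were next split within each library by a UMI of Il5, Il13 or Il2, cytokines made by ILC2s. At 1500 UMIs per cell an Il5 UMI was found in 2481 WT and 1289 Pac1-/- cells (32.5% and 19.6%), an Il13 UMI in 1095 and 576 (14.3% and 8.78%), and an Il2 UMI in 579 and 493 (7.58% and 7.51%). Il5 itself stood at 718 CPM in WT and 405 in Pac1-/-, so the classes were not of equal size in the libraries. A member was counted when it had at least 200 UMIs in the thinned cells of a library, which 5 members reached in WT (Dusp1, Dusp2, Dusp5, Dusp6 and Dusp10) and 4 in Pac1-/- (the same without Dusp2). Cells of 1 library are not replicates, and these ratios are descriptions of each library. Each thinning is a random draw, and ranges called draws are those over 20 further draws.

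Dusp5 was higher in cells with Il5 in both libraries. In WT it stood at 835 CPM in cells with an Il5 UMI and 539 in cells without, a log2 ratio of 0.63 (0.57 to 0.70), and 97.4% of all genes had a lower one. In Pac1-/- it stood at 763 and 385 CPM, a ratio of 0.99 (0.90 to 1.08). Over 20 draws the ratios ran from 0.58 to 0.73 and from 0.88 to 1.06. As a share, 62.6% of WT cells with Il5 held a Dusp5 UMI against 45.02% of those without, and in Pac1-/- these shares were 56.2% and 34.5%.

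Dusp10, which acts on p38 and JNK, followed Dusp5. It stood at 98.1 CPM in WT cells with Il5 and 70.3 in cells without, a ratio of 0.48 (0.29 to 0.68; 0.37 to 0.79 over the draws). In Pac1-/- it stood at 95.2 and 49.3 CPM, a ratio of 0.95 (0.69 to 1.21; 0.76 to 1.17 over the draws). Dusp4, which was under the 200 UMIs with 184 in WT and 98 in Pac1-/-, had ratios of 0.74 and 1.56, and these ran from 0.51 to 1.06 and from 0.53 to 1.75 over the draws. The ratios of these 3 genes were thus positive in both libraries and in all draws. In this draw, only Dusp5 in WT, and Dusp5 and Dusp10 in Pac1-/-, had both 200 UMIs and a ratio of at least 0.5.

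Dusp1 did not follow them. It stood at 557 CPM in WT cells with Il5 and 634 in those without, a ratio of -0.19 (-0.29 to -0.15 over the draws), and in Pac1-/- at 812 and 907 CPM, a ratio of -0.16 (-0.22 to -0.056 over the draws). Without thinning the ratios were -0.030 and 0.023, so the sign in Pac1-/- was not kept. The median gene had ratios of -0.12 and -0.14, so Dusp1 was close to the median gene. Dusp6 had ratios of 0.13 and 0.30, with draws that crossed 0 in both libraries. Dusp2 in WT stood at 18.8 CPM in cells with Il5 and 26.7 in cells without, a ratio of -0.50 (-0.92 to -0.10) from 70 and 206 UMIs, and the draws ran from -1.14 to -0.30. It was thus the member with the lowest ratio by Il5, and the sign was the same in all of them.

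In this draw 1 of the 5 members in WT and 2 of the 4 in Pac1-/- were higher by at least 0.5 in cells with Il5, and over 20 draws the counts were 2 to 3 and 2. Among all genes with the same minimum, 4.34% in WT and 6.03% in Pac1-/- were that high. By Il13 the counts were 0 and 2, over 20 draws 0 to 2 and 1 to 2, against 2.18% and 5.54% of all genes. By Il2 they were 0 and 0, over 20 draws 0 to 1 in both libraries, against 2.53% and 1.96%. With 4 or 5 members to count, a share says little, and the values of single genes carry the description.

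**Figure D3:**
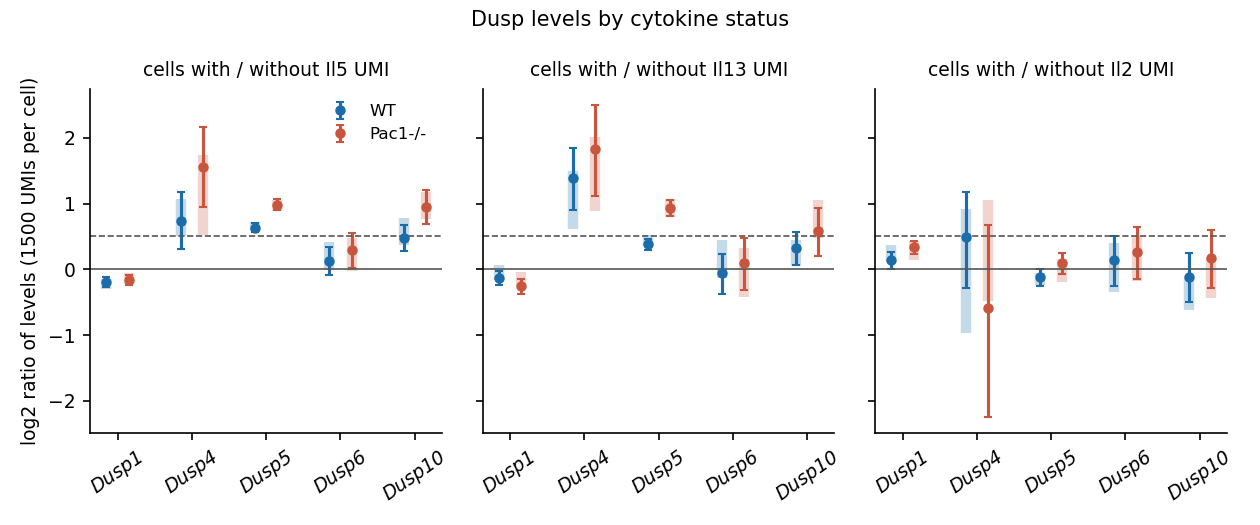
Log2 ratio of each gene's level in cells with over cells without a UMI of Il5, Il13 or Il2, at 1500 UMIs per cell, in WT and Pac1-/- (1 library each). Points are the main draw with 95% counting intervals, pale bars span 20 further draws, and the dashed line marks 0.5. Dusp5 and Dusp10 lie above 0 by Il5 and Il13 in both libraries, while Dusp1 lies between -0.26 and -0.13 by Il5 and Il13 and at 0.14 and 0.33 by Il2.

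By Il13, Dusp4, Dusp5 and Dusp10 were again above 0 in both libraries, in this draw and in the 20 others. Dusp4 stood at 34.1 CPM in WT cells with Il13 and 13.05 in those without, a ratio of 1.39 (0.91 to 1.85) from 56 and 128 UMIs, and at 28.9 and 8.13 CPM in Pac1-/-, a ratio of 1.83. The lowest of the draws were 0.62 and 0.89. Dusp5 stood at 791 and 609 CPM in WT, a ratio of 0.38 (0.29 to 0.46), and at 812 and 425 CPM in Pac1-/-, a ratio of 0.93 (0.82 to 1.05). The draws ran from 0.35 to 0.53 and from 0.80 to 1.07. Dusp10 had ratios of 0.32 and 0.58, but in WT the draws ran from 0.047 to 0.45, and in Pac1-/- from 0.48 to 1.06. Dusp2 in WT, lowest by Il5, stood at 0.017 by Il13 (-0.69 to 0.23 over the draws). Dusp16 had ratios of 0.67 and 1.24 from 25 and 10 UMIs in cells with Il13, and draws from -0.026 to 0.98 and from -0.079 to 1.43, so no direction is read from it. Dusp1 had ratios of -0.13 and -0.26, and in WT the sign was not kept, with 0.063 in the highest of the draws and 0.070 without thinning. In Pac1-/- it was kept in the draws but not without thinning, at 0.0044.

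By Il2, Dusp1 was the only member with 200 UMIs whose counting interval lay above 0 in both libraries, and none reached the fold. Dusp1 stood at 664 CPM in WT cells with an Il2 UMI and 605 in cells without, a ratio of 0.14 (0.01 to 0.26; 0.11 to 0.37 over the draws). In Pac1-/- it stood at 1098 and 871 CPM, a ratio of 0.33 (0.23 to 0.44; 0.14 to 0.43 over the draws). In WT 74.4% and in Pac1-/- 92.6% of the genes had a lower ratio. Dusp5 had ratios of -0.12 and 0.09 and Dusp10 of -0.11 and 0.17, all with intervals that held 0. In WT the draws ran from -0.24 to -0.053 for Dusp5 and from -0.63 to -0.15 for Dusp10. The WT value of Dusp10 thus lay above all of its draws. In Pac1-/- the draws of both genes crossed 0. Dusp16 had a ratio of 1.12 in WT from 18 UMIs in cells with Il2, but the 20 draws ran from -1.18 to 0.39, and no direction can be given for it.

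Il5 and Il13 overlap in cells, so cells were also put into 4 classes. In WT, Dusp5 stood at 524 CPM (507 to 541) in the 4622 cells with neither cytokine, 670 in the 531 with Il13 only, 815 in the 1917 with Il5 only and 905 (842 to 972) in the 564 with both. In Pac1-/- the same classes held 4960, 315, 1028 and 261 cells, and Dusp5 stood at 367 (354 to 381), 667, 706 and 989 CPM (892 to 1092). It was thus lowest without either cytokine and highest with both in each library, and so it was over the draws, where cells with neither had at most 535 CPM in WT and 377 in Pac1-/-, and cells with both at least 865 and 856. Dusp1 went the other way at the far end, with 636 CPM in WT cells with neither and 508 (461 to 559; 471 to 556 over the draws) in those with both. In Pac1-/- these values were 907 and 559 CPM (488 to 639), the latter below the 604 to 723 of the draws, while cells with only Il5 or only Il13 stood at 876 and 914. Dusp10 was lowest in cells with neither, at 66.8 CPM in WT and 47.7 in Pac1-/-, and its 3 other classes stood between 91.0 and 100.4 CPM in WT and between 74.1 and 95.3 in Pac1-/-. In WT the draws of cells with Il13 only, from 64.6 to 93.6 CPM, overlapped the 57.1 to 71.5 of cells with neither. Their order may therefore not hold in every draw.

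**Figure D4:**
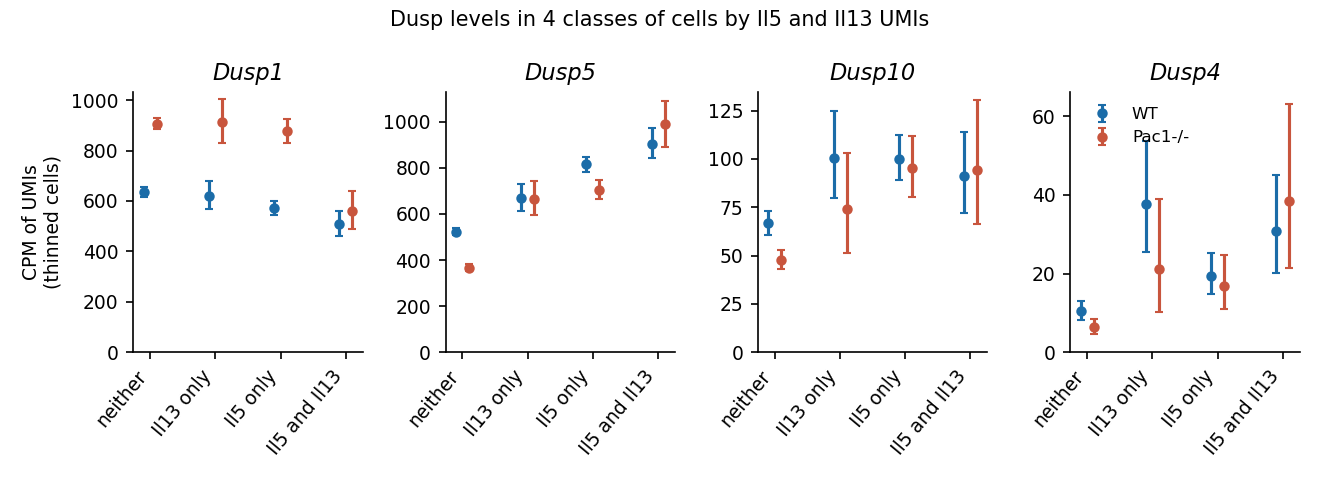
Level of Dusp1, Dusp5, Dusp10 and Dusp4 in CPM in cells with neither cytokine, Il13 only, Il5 only or both, at 1500 UMIs per cell, in WT and Pac1-/- (1 library each, 95% Poisson intervals, axes from 0). Dusp5 goes from 524 to 905 CPM in WT and from 367 to 989 in Pac1-/-, and Dusp1 is lowest in cells with both in this draw.

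The ratio between the libraries was then taken within cells of the same cytokine status. In cells without an Il5 UMI, Dusp5 had a log2 ratio of Pac1-/- over WT, as counted, of -0.48 (-0.55 to -0.42), against -0.13 (-0.22 to -0.04) in cells with Il5. By Il13 these ratios were -0.52 (-0.58 to -0.46) without and 0.04 (-0.10 to 0.17) with a UMI. Less the 0.19 by which the median gene over all cells stood higher in Pac1-/-, the ratios of Dusp5 were -0.67 without and -0.32 with Il5, and -0.71 without and -0.15 with Il13, so the sign in cells with Il13 depends on the scale. Over the draws the ratios of Dusp5 as counted ran from -0.52 to -0.44 without and from -0.20 to -0.061 with Il5, and from -0.57 to -0.48 without and from -0.15 to 0.079 with Il13. Dusp10 had a ratio of -0.51 (-0.70 to -0.32) without Il5 and -0.04 (-0.31 to 0.22) with it, or -0.70 and -0.23 on the relative scale, but its draws as counted, from -0.63 to -0.13 and from -0.26 to 0.16, overlapped. The ratio of Dusp1 as counted was above 0 in each of these cell groups, 0.52 without and 0.54 with an Il5 UMI, 0.55 and 0.42 by Il13, and 0.53 and 0.72 by Il2. The lowest of its draws was 0.30, in cells with Il13, and the lowest relative ratio was 0.23, also there. For Dusp4 the ratios as counted by Il5 were -0.87 and -0.06, but the cells with Il5 held only 82 and 41 of its UMIs. Dusp16 went the other way, at -0.79 and -1.31, from 43 and 9 UMIs in cells with Il5. These differences between classes were not tested, since there was 1 library per genotype. In cells free of Il5, Il13 and Il2 UMIs, 55.8% of the thinned cells in WT and 69.7% in Pac1-/-, the relative ratios, here less the median ratio within these cells, were -0.69 for Dusp5, -0.69 for Dusp10 and 0.34 for Dusp1.

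Of the members found in at least 2% of thinned cells, Dusp5 and Dusp10 were found in the same cells more often than their shares give. In WT 518 cells held both, against 398 from the product of the shares, a ratio of 1.30 (1.20 to 1.41). In Pac1-/- 290 cells held both against 198, a ratio of 1.47 (1.30 to 1.64). The draws ran from 1.21 to 1.32 and from 1.37 to 1.51. The ratio was above 1 in both libraries and in all draws. The abundant pair Dusp1 and Dusp5 was close to its product, with ratios of 1.05 and 1.10, and Dusp1 and Dusp10 stood at 0.95 and 1.01. Dusp6 and Dusp10 had the lowest ratio of the pairs compared in WT, 0.78 (0.59 to 1.02) with 55 cells against 70.2, but the draws ran from 0.76 to 1.18.

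Of 15 pairs that could be compared in WT, 6 were at least 25% above their product, but over 20 draws the count was 1 to 4, and 11.3% of all gene pairs were that high. In Pac1-/- it was 1 of 6 pairs, the same count in every draw, against 12.2% of all gene pairs. Dusp1 and Dusp2 in WT stood at 1.38 (142 cells against 103), above the 1.09 to 1.37 of the draws, so this value is an upper end. The other 4 high pairs in WT, each with Dusp2 or Dusp4, rested on at most 29 cells. At least 3 of the 7 other members were found in 511 WT cells (6.69%, against 5.996% from the products of the shares) and in 376 Pac1-/- cells (5.73% against 4.34%). None of the 7 was found in 22.3% and 25.5% of cells.

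**Figure D5:**
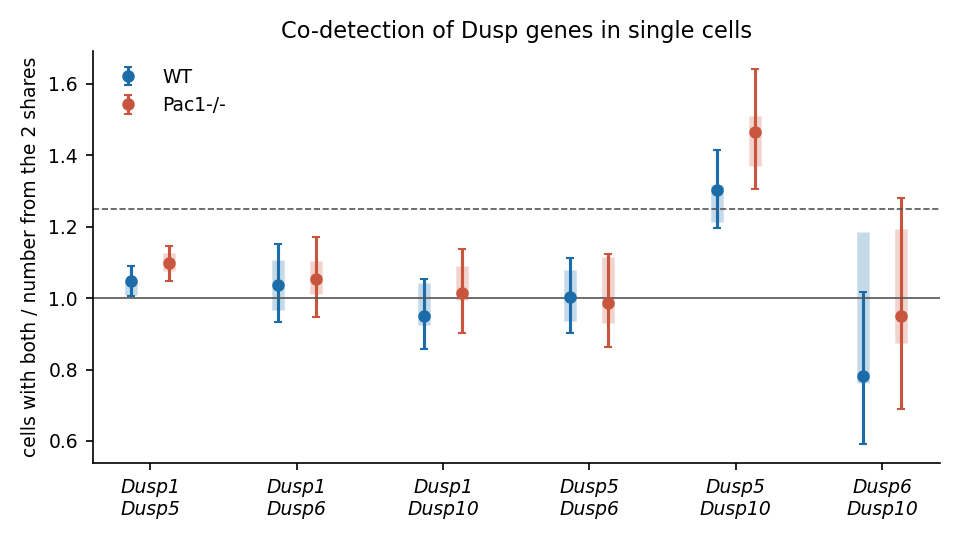
Number of cells with a UMI of both genes divided by the number that the 2 shares give, for the 6 pairs that could be compared in WT and in Pac1-/- (1 library each), with 95% counting intervals and pale bars for 20 further draws. The dashed line marks an excess of 25%. Dusp5 with Dusp10 stands at 1.30 and 1.47. Of the other pairs, Dusp6 with Dusp10 in WT lies lowest, at 0.78, and the rest lie between 0.95 and 1.10.

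Cells of the WT library were also split by Dusp2 itself. Of these, 218 thinned cells held a Dusp2 UMI and 7416 did not. Dusp1 stood at 832 CPM in the former and 603 in the latter, a log2 ratio of 0.46 (0.28 to 0.64), with 91.3% of all genes below it, and the draws ran from 0.22 to 0.57. Dusp5 stood at 609 and 636 CPM, a ratio of -0.06 (-0.27 to 0.14), and Dusp6 at 70.3 and 66.3 CPM, a ratio of 0.09 (-0.58 to 0.68). Dusp10 stood at 110 and 78.4 CPM, a ratio of 0.49 (-0.03 to 0.97), with 92.1% of genes below it, but the draws ran from -0.42 to 0.54. For Dusp5 and Dusp6 the draws also crossed 0. Dusp4 and Dusp16, under 200 UMIs, had ratios of 0.63 (-0.61 to 1.64) and 0.58 (-1.07 to 1.84) from 8 and 5 UMIs in cells with Dusp2. None of the 4 members tested reached the fold, which 7.34% of all genes did. Il5, Il13 and Il2 had ratios of -0.11, -0.02 and 0.19, each with an interval that held 0.

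The genes whose pattern over cells was most like that of a member were named for the 3 highest mean correlations among 3199 genes. For Dusp1 they were Fos (r = 0.35), Fosb (0.33) and Jun (0.32), immediate-early genes that encode AP-1 subunits. For Dusp5 they were Hilpda (0.33), Nr4a1 (0.31), an immediate-early nuclear receptor, and H3f3b (0.30). For Dusp10 the values were lower, with Rora, Crem and Hilpda at 0.13 each. All are means of 2 libraries over 7634 and 6564 cells that share library and depth, and they are descriptions. The other 5 members reached no correlation of 0.1, from which nothing is read.

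The lists of other phosphatases, cascade kinases and ERK response genes had medians closer to 0 than the 7 members. Of 20 other phosphatases of the same or related families, 13 had at least 50 UMIs, and 1 was higher and 3 lower past the fold, with a median of -0.08. Over all genes 11.5% were that much higher and 16.1% lower, so these counts, and those of the kinases that follow, are near the background, and nothing is read from them. Dusp12 was the higher one at 0.55, and Dusp18 (-0.85), Dusp8 (-0.61) and Dusp3 (-0.57) were the lower ones. Of 20 kinases of the MAP kinase cascades 18 could be compared, none was higher, and Braf (-0.70) and Map2k3 (-0.59), which encode kinases upstream of ERK and p38, were lower, with a median of -0.02.

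Of 15 genes known to respond to ERK, none was higher and 6 were lower past the fold, against 11.5% and 16.1% of all genes, with a median of -0.27. As counted, Egr1 (-0.34), Fosl2 (-0.498) and Spry4 (-0.44, from 47 and 37 UMIs) among these 6 did not reach the fold. The summed level of the list was 7092 CPM in WT and 8116 CPM in Pac1-/-. Egr2 (-1.20) and Egr3 (-0.74), transcription factors induced by kinase signals, were the lowest, and Phlda1 (0.30) and Ier3 (0.24) the highest. Fos, the gene most like Dusp1 over cells, had a relative ratio of 0.02, and Fosb of 0.19.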

How the data were processed

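The authors deposited raw counts, 1 per gene and cell barcode, each the number of its UMIs, made from 10x Genomics 3′ v3.1 libraries by alignment to mm10. The submitters' processing notes name Cell Ranger 6.1.1 and the file headers name 4.0.0, and the annotation release is not given in the sources used here. No normalization had been applied. Barcodes, gene names and gene identifiers came from the deposited feature and barcode lists.

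UMIs were summed over the kept cells of each library (Python 3.11.15, scipy 1.17.1, numpy 2.4.6, scikit-learn 1.9.0, pandas 2.3.3) and given as CPM with exact Poisson intervals. Log2 ratios carry exact conditional binomial intervals and shares of cells Clopper-Pearson intervals. All cover counting error at the 95% level only. Doublets were kept in the main values, and the 564 WT and 402 Pac1-/- barcodes predicted as doublets from simulated doublets were left out as an alternative. Cells were thinned without replacement to 1500 UMIs, the deepest of 5 depths that kept 90% of the cells in both libraries. The functions recovered the known answers of simulated data. Genes named were the 8 members, the cytokines, the 3 most alike genes of each member and the extremes of fixed lists, beside the genes a sentence turns on. Members and lists were chosen with earlier results of these data known. Fos, Fosb, Dusp3, Dusp11, Egr1, Fosl2, Spry4, Thy1 and Il7r were named after their values were seen. With 1 library per genotype, no p-value was computed.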

Additional observations from a re-analysis of the deposited data

How the results depend on the processing

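Of the 7 other members, 4 were lower instead of 5 with ratios as counted, among cells under 3000 UMIs and in cells without an Hspa1a or Hspa1b UMI. With ratios as counted, without the shift of the median gene, 1 of the other members was higher instead of 0 and the ratio of Dusp6 was 0.035. With a fold of 1 instead of 0.5, 2 were lower instead of 5. The counts by cytokine moved with the draw. For Il5 in WT, 2 members were higher at 1000 UMIs, without thinning, with 2 UMIs needed for a positive cell, with predicted doublets removed and with cells of over 2 times the median UMIs left out, and 2 to 3 over 20 draws, instead of 1. For Il13 in WT the count was 1 without thinning and with 2 UMIs needed, and up to 2 over the draws, instead of 0. In Pac1-/- it was 4 without thinning and as low as 1 over the draws, instead of 2. For Il2 it was up to 1 over the draws in both libraries. Without thinning, 13 of 21 WT and 9 of 15 Pac1-/- pairs were co-detected at least 25% above their product, instead of 6 of 15 and 1 of 6. More genes pass the 2% minimum there, and of the pairs compared in the main draw 9 of 15 and 2 of 6 were that high. At 1000 UMIs it was 1 of 10 pairs in WT, and 1 in the lowest of 20 draws. Of the ratios whose counting interval excluded 0, that of Dusp6 between genotypes changed sign, from -0.15 to 0.035 as counted. Of such ratios by cytokine, Dusp1 by Il13 in WT changed sign (0.070 without thinning, 0.063 in the highest draw). So did Dusp1 in Pac1-/- by Il5 (0.023) and by Il13 (0.0044) without thinning. Dusp16 by Il2 in WT also did (-0.026 without thinning, -1.18 in the lowest draw). In the lowest draws in Pac1-/-, Dusp6 by Il5 (-0.026) and Dusp16 by Il13 (-0.079) changed sign. Ratios with an interval that held 0 changed sign too, such as Dusp5 by Il2 in WT (0.10) and Dusp10 by Il2 in Pac1-/- (-0.17) without thinning. The cause was not tested beyond the settings themselves. The 20 draws were planned, but for the split by Dusp2, the 4 classes and the ratios within a status they were added after seeing the data, as were the depth ranges and the cells without heat shock, T cell receptor or cytokine UMIs. Depth limits Dusp4, Dusp14 and Dusp16, with at most 1151 UMIs in a library.

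No paired analysis was possible because each genotype has 1 library and the labels give no replicate numbers.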
